A study of Homo sapiens with 3 samples.

Results

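Cells control free zinc with membrane transporters of opposing direction and with small zinc-binding proteins, and the genes of this system were followed in FaDu cells exposed to a plant extract. The set held the ZIP transporters (SLC39A genes), the ZnT transporters (SLC30A genes), the metallothioneins and MTF1, and its members were found by gene symbol. It comprised 35 genes, 14 ZIP, 10 ZnT and 10 metallothionein genes and MTF1, of the 18132 genes named on the array. They were read by 101 of the 44988 probe sets that named exactly 1 gene. FaDu is an established cell line derived from a hypopharyngeal squamous carcinoma. The treated group was 1 array of FaDu cells kept for 48 h with NSC-631570, an extract of greater celandine (Chelidonium majus), at 10 µg/ml, the EC50 dose per the series. The untreated group was 2 arrays of FaDu cells kept for the same 48 h with distilled water in its place. Total RNA of each sample was hybridised to 1 Affymetrix PrimeView array, and the values are log2 signals per probe set.

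ZIP transporters carry zinc into the cytosol, from outside the cell or out of organelles, and ZnT transporters carry it the other way, out of the cell or into vesicles, the Golgi apparatus and the secretory pathway. Metallothioneins are short, cysteine-rich proteins that hold zinc and copper in clusters and bind cadmium. MTF1 is the zinc-sensing transcription factor that binds metal response elements and switches on metallothionein genes and SLC30A1 when free zinc rises. These proteins also matter in squamous epithelium, where zinc supply is known to affect proliferation and differentiation.

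Median signals were 6.62 and 6.57 for untreated arrays 1 and 2 and 6.55 for the treated array. There was 1 treated array, so every test below takes it to vary like the untreated ones, and precision is limited by having 3 arrays. Whether the untreated samples were separate cultures is not stated, so p-values measure only a spread that may be technical. Of the markers of squamous epithelium, all 5 that were named here (KRT5, KRT14, SFN, CDH1 and DSG3) passed the filter on low signal, against 1 of 5 fibroblast markers. The leukocyte marker PTPRC did not pass it (3.72, 3.72 and 3.78), while 2 other leukocyte markers and all 3 endothelial markers passed its limit of 5.85 with signals between 5.65 and 7.79, and no detection call says whether these were above background.

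The treated array differed from the untreated ones in its controls. The array carries control probe sets for different stretches of the same transcript. For ACTB the 5′ control stood at 13.61 and 13.60 untreated and at 12.23 treated, 2.59-fold lower, whereas the 3′ control stood at 14.19, 14.21 and 14.40. For GAPDH the 5′ control was 1.39-fold lower and the 3′ control differed by −0.01 on the log2 scale. For the control named ISGF3A the 5′ probe set was 1.91-fold lower and the 3′ one was 0.15 higher on the log2 scale. In all 3 of these controls the signal of the treated array was therefore lower towards the 5′ end, and the untreated arrays lay within 0.12 of each other at each position. The control named HUMRGE was lower at every position, by 2.26-fold to 3.09-fold. The part of this gradient in the values below was not tested, since the deposited table does not place probe sets along their transcripts.

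**Figure D1:**
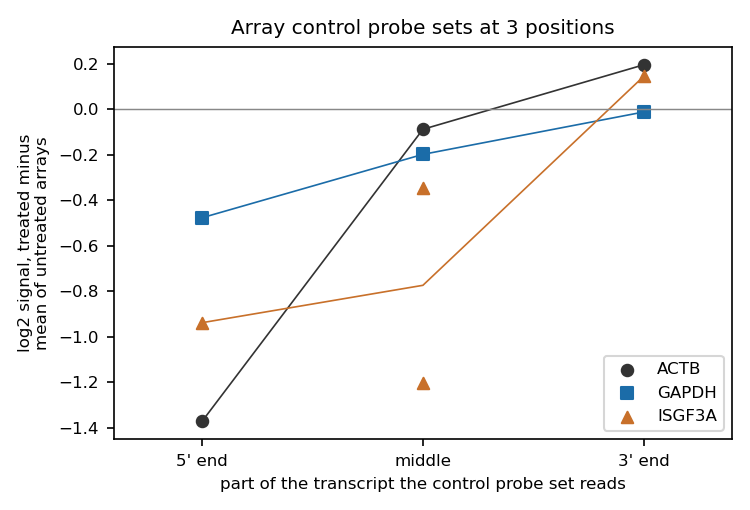
The vertical axis is the log2 signal of the treated array minus the mean of the 2 untreated arrays, and the horizontal axis is the position of the control probe set. Points are single probe sets and lines join the mean at each position: for ACTB the difference runs from −1.37 at the 5′ end to 0.20 at the 3′ end, for GAPDH from −0.48 to −0.01 and for ISGF3A from −0.94 to 0.15.

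The question of the study for these genes is whether the extract changed their expression. With each gene read by its probe set of highest mean signal, 27 of the 35 genes passed the filter and were tested: 11 ZIP, 7 ZnT and 8 metallothionein genes and MTF1. None of the 27 passed the threshold of limma (adjusted p under 0.05 over all 11932 tested genes, which 0.0670% of them passed). At an unadjusted p under 0.05 limma counted 3 members, SLC39A7 below the untreated mean and SLC39A4 and MT1F above it, where 14.4% of all tested genes were counted. SLC39A7 was the only member at least 2-fold away from both untreated arrays, as were 1.11% of all tested genes. The treated array lay above both untreated arrays in 15 members, against 51.6% of all tested genes, and below both in 2, against 22.5%. The 2 below were SLC39A7 and MT1E. The median log2 difference was 0.25 over the ZIP genes, 0.17 over the ZnT genes and 0.15 over the metallothionein genes, beside 0.12 over all tested genes. With the mean of all probe sets of a gene in place of 1 probe set, the ZIP median was −0.36 and the ZnT median −0.077. The median over all tested genes was 0.035 in that setting. After centring the arrays on their medians over the tested genes, the ZnT and metallothionein medians were −0.029 and −0.048. That centring shifts every gene by the same amount and put the median over all tested genes at −0.079. The direction of the family medians is therefore not settled, and under this centring they moved with all tested genes.

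**Figure D2:**
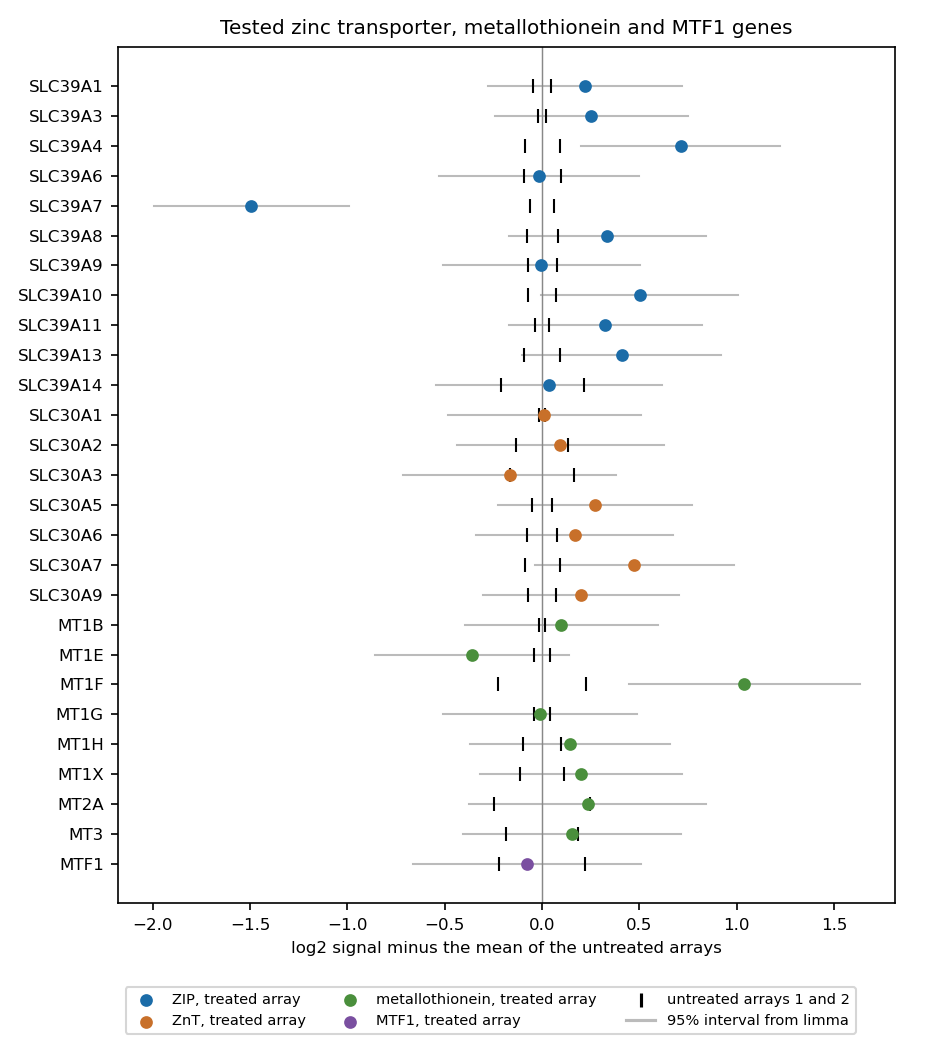
Each row is a tested gene read by its probe set of highest mean signal, and the horizontal axis is log2 signal minus the mean of the untreated arrays. Coloured points are the treated array, vertical ticks are untreated arrays 1 and 2, and grey lines are the 95% interval of the treated minus untreated difference from limma: SLC39A7 lies apart on the low side at −1.49, and MT1F (1.04) and SLC39A4 (0.71) are the highest.

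SLC39A7 encodes ZIP7, which releases zinc from the endoplasmic reticulum and Golgi into the cytosol and is switched on through phosphorylation by casein kinase 2. Its probe set of highest signal read 9.82 and 9.94 untreated and 8.38 treated. The treated value lay 1.43 below the nearer untreated array, while the untreated arrays were 0.13 apart. The log2 difference was −1.49 ± 0.22 (SE from limma), or 2.82-fold lower, with an adjusted p of 0.0737. Its adjusted p ran from 0.0124 to 0.148 over 9 ways of processing that allowed a test, and it passed in 4 of them. The 2 other probe sets of SLC39A7, both annotated with a RefSeq transcript, read 9.11, 9.43 and 8.23, and 9.04, 9.36 and 8.27, in the order untreated 1, untreated 2 and treated. These were 2.06-fold and 1.91-fold lower. All 3 probe sets of the gene were thus at least 1.5-fold below both untreated arrays, and SLC39A7 was the only member gene with several probe sets past the filter of which that held. In an RNA measurement from a whole culture, fewer cells with the transcript and less of it per cell cannot be told apart.

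**Figure D3:**
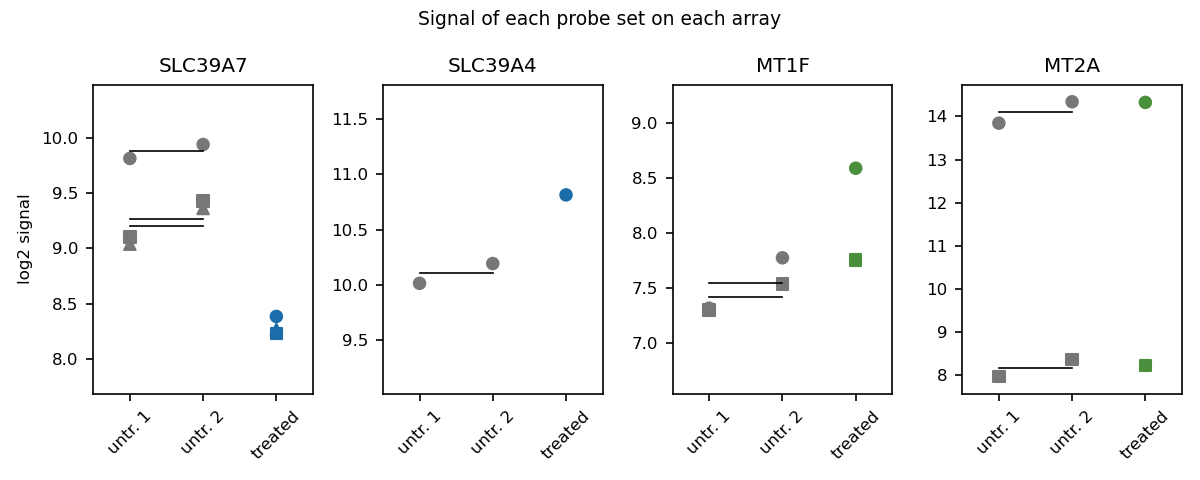
The vertical axes are log2 signals and differ between panels; the horizontal axis gives untreated array 1, untreated array 2 and the treated array. Marker shapes are different probe sets of a gene and black lines the untreated mean: all 3 probe sets of SLC39A7 are lower in the treated array, the single probe set of SLC39A4 and both of MT1F are higher, and both of MT2A lie within the range of the untreated arrays.

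Among the ZIP genes, SLC39A4 stood highest against its untreated values. It encodes ZIP4, the zinc importer whose loss causes acrodermatitis enteropathica. Its only probe set read 10.01 and 10.19 untreated and 10.81 treated, a log2 difference of 0.71 ± 0.22 or 1.64-fold, with a limma adjusted p of 0.211. SLC39A10, the partner of SLC39A6 in zinc uptake at the plasma membrane, read 9.92 and 10.07 against 10.49 (0.50 ± 0.22, adjusted p = 0.348). Both genes lay above both untreated arrays on these probe sets without passing the test. SLC39A10 had 1 other probe set past the filter, which read 7.09 and 7.04 against 6.01 and so was 2.07-fold lower. SLC39A6 (ZIP6) read 10.95 and 11.14 against 11.03, between the untreated arrays. Its 2 other probe sets were lower, at 9.73 and 10.03 against 9.54 and at 9.16 and 9.13 against 8.41, the second 1.66-fold. This second one is annotated with a RefSeq transcript, and the probe set used for SLC39A6 is not.

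SLC39A14 encodes ZIP14, an importer of zinc, iron and manganese that inflammation induces in liver. It read 11.13 and 11.56 against 11.38, between untreated arrays that were 0.43 apart. A second probe set of SLC39A14 read 6.37 and 6.83 against 5.04. The treated value is under the filter limit of 5.85, so this probe set passed only through the untreated arrays and no exact fold is given. SLC39A8, its close relative, lay above both untreated arrays with 9.18 and 9.02 against 9.43. SLC39A1, a widely expressed importer, differed by 0.22, SLC39A3 by 0.25 and SLC39A11 by 0.32, all 3 above both untreated arrays on the probe set of highest signal. On their other probe sets SLC39A3 differed by 0.22 and −0.18, and SLC39A11 by −0.10 and −0.29. The other probe sets of SLC39A1 are given below.

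SLC39A13 and SLC39A9 encode further ZIP transporters of internal membranes. SLC39A13 (ZIP13, whose loss causes a form of Ehlers-Danlos syndrome) stood above both untreated arrays on each of its 2 probe sets, which read 7.73 and 7.91 against 8.23, and 7.24 and 7.55 against 7.87, differences of 0.41 and 0.47. SLC39A9 (ZIP9) read 10.89 and 10.74 against 10.82 on the probe set of highest signal and 10.08 and 10.03 against 10.05 on the next. Both probe sets are annotated with a RefSeq transcript, and in both the treated value lay between the untreated ones. The 7 other probe sets of SLC39A9 were all below both untreated arrays, as were 34.5% of all probe sets (40.7% were above both), and 3 of them fell by limma over 27249 probe sets. Of these, 2 differed by −1.07 and −1.66, and the third read 7.54 and 7.40 against 5.76, a treated value under the filter limit.

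The ZnT genes showed no member at least 1.5-fold from both untreated arrays on the probe set of highest signal, where 7.07% of all tested genes were. SLC30A1 encodes ZnT1, the exporter of the plasma membrane and a direct target of MTF1. It read 10.15 and 10.12 against 10.14, a difference of 0.01 ± 0.21 with a 95% interval from −0.48 to 0.51, and its second probe set read 8.78 and 8.97 against 8.83. Neither probe set left the untreated range. ZnT5 and ZnT6, which form a heteromer, and ZnT7 load zinc-dependent enzymes in the secretory pathway. SLC30A5 read 9.93 and 9.83 against 10.15, and its 4 other probe sets past the filter differed by 0.09 to 0.23. Of these 5 probe sets 2 lay above both untreated arrays, and the others lay within the untreated range. SLC30A7 read 8.93 and 8.75 against 9.32, a difference of 0.47 ± 0.22 (adjusted p = 0.383), and its probe set annotated with a RefSeq transcript read 8.91 and 8.58 against 9.27. A further probe set of SLC30A7 went the other way and fell, with 7.72 and 7.94 against 6.69 (−1.14, adjusted p = 0.0457).

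SLC30A6 showed the same split. Its probe set of highest signal read 9.23 and 9.07 against 9.31, and the 3 others were below both untreated arrays. The lowest of them read 6.66 and 6.60 against 4.99, and it too passed the filter only through the untreated arrays. SLC30A9, a mitochondrial transporter, read 9.87 and 10.01 against 10.14, with its second probe set at 8.14 and 8.21 against 7.66. SLC30A3 and SLC30A2, which fill vesicles, differed by −0.17 and 0.09, within the range of the untreated arrays.

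Across the 2 transporter families, then, the direction depended on which probe set was read. Taken one by one, 76 of the 101 member probe sets passed the filter. Of these, 9 fell and none rose by limma (adjusted p under 0.05 over all 27249 probe sets that passed), in SLC39A1, SLC39A7, SLC39A9, SLC39A14, SLC30A6 and SLC30A7. In 3 of the 9, those of SLC39A14 and SLC30A6 named above and 1 of SLC39A9, the treated value was under the filter limit, and in 6 it was not. Of all probe sets 2.38% fell and 0.554% rose. The count of 9 depended on the processing: it was 12 after centring on array medians of the tested probe sets, 10 with an intensity trend in the prior variance, 4 after quantile normalization, 5 after centring on array medians of every probe set, 5 when no filter was applied and 3 under a 60th percentile filter, with none higher in any of them. At least 1.5-fold below both untreated arrays were 14 of 39 ZIP probe sets, 2 of 19 ZnT probe sets and none of 13 metallothionein probe sets, where 6.77% of all probe sets were; the same 3 treated values under the limit are among these 16. At least 1.5-fold above both were 2 member probe sets, those of SLC39A4 and MT1F, where 4.15% of all probe sets were. Probe sets of 1 gene read the same RNA and can share probes, so they are not independent of each other. The 14 low ZIP probe sets came from 6 genes, with 4 in SLC39A1, 4 in SLC39A9 and 3 in SLC39A7. Their share therefore rests largely on these 3 genes.

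The low values collected in particular probe sets. Of the 28 other ZIP probe sets that stood beside the one used for their gene, 24 were below the untreated mean (55.4% of such probe sets over the whole array), with a median of −0.44, whereas the 10 used for those genes had a median of 0.24. Over all 7124 such genes the medians were −0.05 for 15317 other probe sets and 0.12 for those used. The mean by which a probe set was picked includes the treated array, so the choice itself favours probe sets not low there. How much of the gap between these medians comes from that choice was not tested. By the sequence named in the platform annotation, 3 of 14 ZIP probe sets tied to a RefSeq transcript were at least 1.5-fold below both untreated arrays, against 11 of 25 tied to another sequence, such as a cDNA clone. Over all probe sets these shares were 1.60% of 8457 and 9.09% of 18792. The differences between probe sets of a gene spanned more than 1 log2 unit in 6 of the 22 members with several probe sets, namely SLC39A1, SLC39A9, SLC39A10, SLC39A14, SLC30A6 and SLC30A7. That was so for 14.9% of the 7124 genes, whose numbers of probe sets were not matched to those of the members. SLC39A1 and SLC39A9 had 9 each. In SLC39A14 and SLC30A6 the span passed 1 only through the probe set whose treated value was under the filter limit. What part the sequence read, the position along the transcript or splice forms have in the split between probe sets was not tested.

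SLC39A1 shows the split in 1 gene. Of its 9 probe sets, the one used for the gene read 11.18 and 11.08 against 11.35 and the one annotated with a RefSeq transcript 10.63 and 10.57 against 10.85, both above the untreated arrays. Of the others, 4 were at least 1.5-fold below both untreated arrays. The lowest of these read 9.06 and 9.18 against 7.98 and fell by 1.14 on the log2 scale (adjusted p = 0.0423). The mean of all 9 probe sets differed by −0.45, against 0.22 for the one used.

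**Figure D4:**
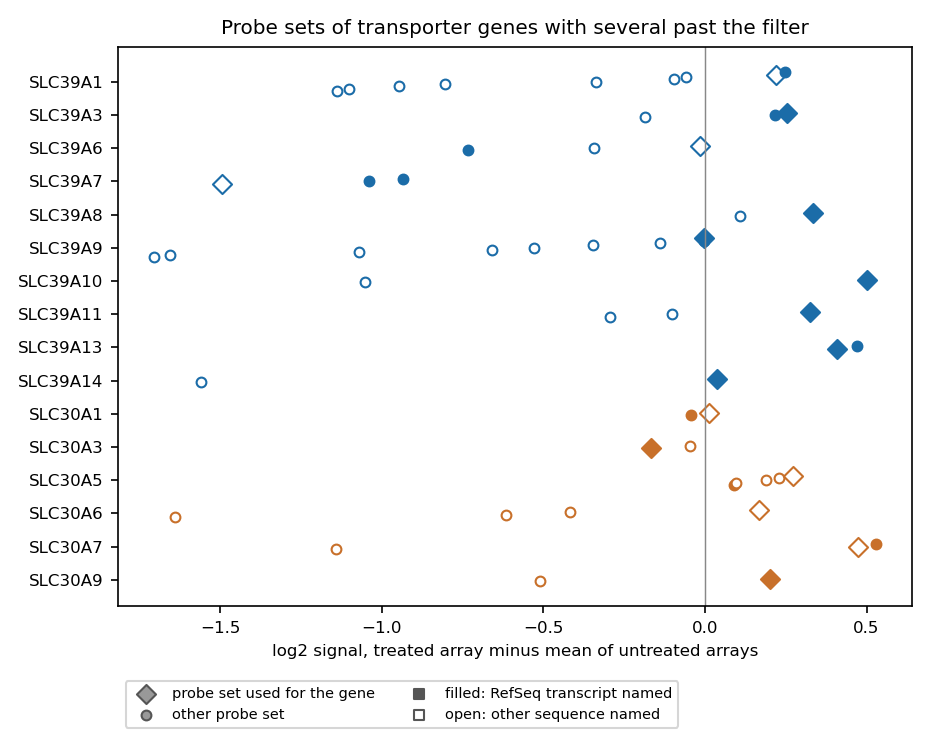
Each row is a transporter gene with several probe sets past the filter, blue for ZIP and orange for ZnT, and the horizontal axis is the log2 signal of the treated array minus the mean of the untreated arrays. Diamonds are the probe set of highest mean signal and circles the others. Markers are filled where the annotation names a RefSeq transcript and open where it names another sequence. SLC39A7 is low on all 3 probe sets. Values both above and below 0 are held by SLC39A1, SLC39A3, SLC39A10, SLC39A11, SLC39A14, SLC30A1, SLC30A6, SLC30A7 and SLC30A9.

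The metallothionein genes lie together on chromosome 16 and their promoters hold metal response elements, the sites of MTF1. The core of the element was searched as the letters TGCACNC and TGCGCNC on both strands of the RefSeq promoter windows (300 bases, from 250 before to 50 after each start, build GRCh38.p14). Windows were found for 27 of the 35 genes. All 5 metallothionein windows held 3 or more matches, and MT2A and MT1H held 8 each, where 2.30% of all 35093 windows held 3 or more. At least 1 match was found in 7 of 19 ZIP windows and 6 of 11 ZnT windows, beside 29.5% of all windows. The windows of SLC39A7 and MTF1 held none. A match is a description of these letters and does not show a bound site. The 250 bases before the start are shown for MT2A, MT1X and SLC30A1, 3 genes under MTF1 whose values follow, with matches in capitals and none of them overlapping another: MT2A at chr16:56608334-56608583 (plus strand, 7 matches), MT1X at chr16:56682220-56682469 (plus strand, 4 matches) and SLC30A1 at chr1:211579162-211579411 (minus strand, 1 match).
MT2A: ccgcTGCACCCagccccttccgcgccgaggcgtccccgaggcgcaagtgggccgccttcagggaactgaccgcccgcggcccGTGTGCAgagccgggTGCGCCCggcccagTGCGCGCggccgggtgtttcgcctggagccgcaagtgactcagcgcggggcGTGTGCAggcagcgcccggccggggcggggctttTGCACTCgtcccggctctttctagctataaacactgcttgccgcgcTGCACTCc
MT1X: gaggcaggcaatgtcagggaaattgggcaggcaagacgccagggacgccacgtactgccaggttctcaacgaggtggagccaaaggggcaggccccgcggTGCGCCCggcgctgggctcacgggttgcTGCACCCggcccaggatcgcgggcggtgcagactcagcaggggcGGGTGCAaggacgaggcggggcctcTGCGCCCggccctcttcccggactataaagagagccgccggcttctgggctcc
SLC30A1: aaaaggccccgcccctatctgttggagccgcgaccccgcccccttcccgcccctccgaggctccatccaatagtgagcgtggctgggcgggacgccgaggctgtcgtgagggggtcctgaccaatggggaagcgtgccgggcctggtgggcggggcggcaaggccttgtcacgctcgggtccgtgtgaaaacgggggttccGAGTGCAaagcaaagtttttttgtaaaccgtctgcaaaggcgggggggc

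None of the 3 genes shown passed the limma threshold. MT2A, the main metallothionein of most cells, read 13.84 and 14.34 against 14.33, and its second probe set 7.97 and 8.36 against 8.23. In both the treated value lay inside the untreated range, and the limma difference was 0.23 with a 95% interval from −0.37 to 0.84. MT1X read 10.93 and 11.16 against 11.25, and 10.43 and 10.50 against 10.56, so its probe sets were above the nearer untreated array by 0.09 and 0.06. The interval of MT1X (−0.32 to 0.72) and that of MT2A both include a rise of 1.5-fold. For these 2 genes a change of that size could not be told from none with these arrays.

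MT1F was the metallothionein with the largest difference. Its probe set of highest signal read 7.32 and 7.78 untreated and 8.59 treated, 2.06-fold higher (1.04 ± 0.26, adjusted p = 0.15 by limma). Its other probe set read 7.30 and 7.54 against 7.76, 1.26-fold higher. Both were above both untreated arrays, which were themselves 0.46 and 0.23 apart. MT1E went the other way with 10.62 and 10.71 against 10.30 (−0.36 ± 0.22, adjusted p = 0.509). MT1G read 7.79 and 7.70 against 7.74, and 6.98 and 6.75 against 6.68 on its second probe set past the filter. MT1H differed by 0.14, MT1B by 0.10 and MT3, the form known from brain, by 0.15.

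Metallothionein genes are near copies of each other, and the probe sets do not all tell them apart. Of the 17 metallothionein probe sets, 9 carry the suffix by which the manufacturer marks probes that may bind other sequences and 2 the suffix for probes shared by related genes. Of the 8 probe sets used for the tested metallothionein genes, 5 are of the first kind (MT1E, MT1H, MT1X, MT2A and MT3) and 1 of the second (MT1F). A value given for 1 metallothionein may thus hold signal of another. One further probe set names MT1M together with other metallothionein sequences and was left out by the rule. In 6 of the 8 metallothionein genes untreated array 2 lay above untreated array 1, so from untreated array 1 and 2 singly the difference was 0.48 and −0.01 for MT2A and 1.27 and 0.81 for MT1F.

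MTF1 itself read 8.63 and 8.18 against 8.33, between the untreated arrays, and its 4 other probe sets differed by −0.28 to 0.05. None of its 5 probe sets was 1.5-fold from both untreated arrays.

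The 8 genes without a probe set past the filter were SLC39A2, SLC39A5, SLC39A12, SLC30A4, SLC30A8, SLC30A10, MT1M and MT4. Among them SLC30A8 is the zinc transporter of insulin granules in pancreatic beta cells, SLC39A5 is known from pancreas and intestine, and MT4 from stratified squamous epithelium. Their mean signals ran from 3.37 to 5.76, and their differences from −0.23 to 0.19 on the log2 scale. No detection call was available, so these signals are not known to be above background.

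Other genes of metal handling were read from lists, and in none of these lists did a member pass the limma threshold over all genes. Among genes reported as MTF1 targets outside the members, 5 of 8 tested lay above both untreated arrays and 1 below, with a median of 0.18, beside 51.6% above, 22.5% below and a median of 0.12 over all tested genes. NDRG1, which metals and hypoxia induce, read 9.51 and 9.11 against 10.75 (1.44, adjusted p = 0.09), but its 5 other probe sets had a median of −0.16. PGF, a placental growth factor, stood at 0.97 and CEBPA, a transcription factor, at 0.90, each on a single probe set. The untreated arrays were 0.91 apart for PGF and 0.17 apart for CEBPA. GCLC, the catalytic subunit of the first enzyme of glutathione synthesis, differed by −0.02.

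Casein kinase 2, the kinase that acts on ZIP7, was read by CSNK2A1, CSNK2A2 and CSNK2B. The catalytic subunit genes stood at −0.25 (9.62 and 9.47 against 9.29) and −0.34 (10.40 and 10.45 against 10.09), both below both untreated arrays, and the regulatory CSNK2B at 0.30 above both. Their other probe sets had medians of −0.97 for CSNK2A1, 0.0049 for CSNK2A2 and −0.085 for CSNK2B, so the direction of CSNK2A2 and CSNK2B depended on the probe set read. The zinc-sensing receptor gene GPR39 stood at −0.28, with its other probe set at 0.67. Of the zinc-dependent enzymes loaded in the secretory pathway 3 of 8 named passed the filter. NT5E, which makes adenosine at the cell surface, read 6.89 and 8.20 against 9.03 (1.48, adjusted p = 0.208), the placental alkaline phosphatase ALPP read 6.30 and 6.04 against 6.87 (0.69) and the carbonic anhydrase CA12 differed by 0.11. All 3 lay above both untreated arrays, as did 51.6% of all tested genes, and the untreated values of NT5E were 1.30 apart. The other probe set of ALPP differed by 0.02 and that of NT5E by 0.69.

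Of 12 copper-handling genes 7 lay above both untreated arrays and 2 below, with a median of 0.11, near the shares and the median over all tested genes. The largest differences were those of the copper exporter ATP7B (0.66), the copper chaperone COX17 (0.49) and the vesicle protein SLC31A2 (0.46). The other probe set of SLC31A2 differed by −0.056. That of ATP7A stood at −1.15, and those of ATOX1 and CCS each at 0.36. For SLC31A1, SOD1 and COX11 the other probe sets had medians of −0.74, −0.048 and −0.0014. Of 13 tested iron-handling genes 7 lay above both and 3 below, again near the shares over all tested genes, with a median of 0.03. Transferrin receptor 2 (TFR2) stood at 1.20 (6.46 and 5.80 against 7.33) and the mitochondrial iron importer SLC25A37 at 1.10 (9.02 and 8.81 against 10.02). TFRC, the main uptake receptor, differed by 0.02, but its 2 other probe sets had a median of −0.81. The 4 other probe sets of SLC25A37 had a median of 0.65. Genes of metal and oxidant stress had a median of 0.02 over 9 tested. Their largest differences were SLC7A11, the cystine importer, at 0.46, GCLM at −0.41 and the cochaperone DNAJB1 at 0.36. HMOX1, the classical metal-induced enzyme, read 6.70 and 7.70 against 7.03. The other probe sets, 2 for each gene, had medians of 0.40 for SLC7A11, −0.15 for DNAJB1 and −0.59 for HMOX1. The 1 other probe set of GCLM stood at −0.95. TXNRD1 differed by −0.21, but its 2 other probe sets had a median of −2.00. The other probe sets of NQO1 and OSGIN1 stood at 0.023 and 0.090. Glucocorticoids also induce metallothioneins. Of 4 tested glucocorticoid targets DUSP1 stood at −1.04 (9.76 and 11.70 against 9.69), TSC22D3 at −0.87 (7.97 and 9.82 against 8.02) and PER1 at 0.66. For DUSP1 and TSC22D3 the untreated arrays were 1.94 and 1.85 apart, and the treated value was near that of untreated array 1.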

How the data were processed

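The deposited table gives 1 log2 signal per probe set and array for the 2 untreated arrays and the 1 treated array. Per the submitters' processing notes, the authors made these log2 values with Affymetrix Expression Console. Algorithm, settings and normalization: not given in the sources used here. A log2 scale was read from the values, which run from 2.92 to 14.95 in untreated array 1. Probe sets were named through the platform annotation: 44988 named 1 gene, 1832 several, 2473 none, and 102 are array controls.

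Members were the 101 probe sets whose gene symbol matched the rule. Genes were read by their probe set of highest mean, and genes or probe sets under the 40th percentile of mean signal (5.85) were left out. Both were fitted over the whole table with limma (version 3.58.1, R version 4.3.3) and adjusted after Benjamini and Hochberg, with a threshold of 0.05. The residual variance had 1 degree of freedom and was moderated with 6.90 prior degrees of freedom. In a simulation of the gene fit with 11932 genes, 50 genes each were changed 2-fold, 4-fold, 8-fold and 16-fold. Of these, 15 of 50 genes changed 2-fold and 49 of 50 changed 4-fold were recovered, beside 18 unchanged genes called. With fewer or smaller changes than were planted the adjusted threshold is harder to pass, so these shares may be too high for the data. All members may be named: values per array were given where any probe set past the filter lay 1.5-fold from both untreated arrays and for the core genes of the pathway, and up to 3 genes of each list with the largest difference. GCLC, TFRC, HMOX1 and the casein kinase genes, which were named beside them, were chosen for their function with values known. Further copper and stress genes were named for the values of their other probe sets. Values per array of SLC39A8 and SLC39A13 were given outside this rule. The members and lists were chosen with earlier results of these data known. Promoter sequences come from RefSeq (GRCh38.p14), and 27 of the 35 genes matched by symbol. No other coordinates are given, since the array sources used here name no genome build. Alternatives were other normalizations, filters and prior variances, averaging all probe sets of a gene, another fold and leaving out each untreated array.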

Additional observations from a re-analysis of the deposited data

How the results depend on the processing

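Signal without a detection call and 1 residual degree of freedom limit every value here. The number of genes called over the whole table (8) was 4 after quantile normalization, 136 after centring on array medians of all probe sets, 50 after centring on medians of the tested genes, 4 when no filter was applied, 21 under a 60th percentile filter, 3 with the mean of all probe sets and 31 with an intensity trend in the prior variance. Among the members, none was called with the settings used for the report, and 1, SLC39A7, was called with both centrings (adjusted p = 0.0249 and 0.0124), with the intensity trend (adjusted p = 0.0484) and under the 60th percentile filter (adjusted p = 0.0489). At an unadjusted p under 0.05 the member count of 3 became 5 after centring on medians of all probe sets and 6 with the mean of all probe sets. In the fit over probe sets, 799 were called, and 455 after quantile normalization, 440 under the 60th percentile filter, 1143 after centring on the tested probe sets and 953 with the intensity trend. The 9 member probe sets called became 4 after quantile normalization, 5 after centring on medians of all probe sets, 5 unfiltered, 12 after centring on the tested probe sets, 10 with the intensity trend and 3 under the 60th percentile filter. The 16 member probe sets at least 1.5-fold below both untreated arrays became 9 under that filter, which left 52 member probe sets. The 133 genes at least 2-fold from both untreated arrays became 87 under that filter and 844 with 1.5-fold in place of 2-fold, which took the members from 1 to 3. Fewer features were tested under the stricter filter; for the other settings the cause was not tested.

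The SD of the family median over the untreated arrays was 0.102 for ZIP, 0.110 for ZnT and 0.131 for metallothionein genes. Family medians moved by more than that SD after centring on the tested genes (ZIP 0.056, ZnT −0.029, metallothionein −0.048), unfiltered (ZIP 0.13) and with the mean of all probe sets (ZIP −0.36, ZnT −0.077). The median over all tested genes moved too, from 0.12 to −0.079 with that centring, 0.073 unfiltered and 0.035 with the mean of all probe sets. Centring shifts every gene by the same amount, so moves and sign changes under it are not particular to the members. Of the 27 tested members 19 changed sign in at least 1 alternative. Quantile normalization gave SLC30A1 −0.014. Centring on medians of all probe sets gave MT1G 0.033, SLC39A6 0.028 and SLC39A9 0.040. Centring on the tested genes gave MT1B −0.097, MT1H −0.055, MT3 −0.042, SLC39A14 −0.16, SLC30A1 −0.18, SLC30A2 −0.10 and SLC30A6 −0.029. The mean of all probe sets gave SLC39A1 −0.45, SLC39A10 −0.44, SLC39A11 −0.024, SLC39A14 −0.48, SLC39A8 −0.060, SLC30A1 −0.016, SLC30A6 −0.63, SLC30A7 −0.047 and SLC30A9 −0.16. SLC39A7, SLC39A4 and MT1F kept their direction in every alternative run, with differences from −1.69 to −1.16, from 0.51 to 0.80 and from 0.69 to 1.27.

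Leaving out an untreated replicate puts 1 array on each side, so no test can be made. Without untreated replicate 1 and without untreated replicate 2, genes at least 2-fold away numbered 382 and 385, and members 1 and 2. Of the 27 tested members, none of them called, 10 changed sign when 1 untreated replicate was left out, with differences over both omissions from −0.053 to 0.033 for MT1G, −0.015 to 0.48 for MT2A, −0.029 to 0.34 for MT3, −0.30 to 0.14 for MTF1, −0.18 to 0.25 for SLC39A14, −0.11 to 0.080 for SLC39A6, −0.078 to 0.071 for SLC39A9, −0.0049 to 0.028 for SLC30A1, −0.039 to 0.23 for SLC30A2 and −0.33 to 0.00018 for SLC30A3. Family medians kept their sign (ZIP 0.27 and 0.25, ZnT 0.23 and 0.089, metallothionein 0.039 and 0.28). No paired analysis was possible because the treated group has 1 array. The change of pseudocount listed for linear values did not apply to log2 data.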
